A study of Mus musculus with 3 samples.

Results

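A group of miRNAs that share an intron of the Clcn5 gene on mouse chromosome X was examined in regenerating skeletal muscle. The members were chosen by name, with earlier results of these data known and selected on the read counts that are described here, so their levels and ratios are a description and no test was applied to them. The rule named 9 mature miRNAs. The files list 8 of them, out of 1138 mature miRNAs in all, which are mmu-miR-532-5p, mmu-miR-532-3p, mmu-miR-188-5p, mmu-miR-362-3p, mmu-miR-362-5p, mmu-miR-500-3p, mmu-miR-501-3p and mmu-miR-501-5p. mmu-miR-660-5p was not analysed here.

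The libraries were made from RNAs of 18 to 30 nucleotides in the tibialis anterior (TA) muscle of wildtype C57BL/6 mice, labelled as aged 10 weeks, without injury (day 0) and at days 1 and 3 after intramuscular cardiotoxin (CTX), a toxin from cobra venom that lyses muscle fibers. The labels name CTX or saline as the injected agent and do not say whether the day 0 muscles received saline. At each day, RNA of 4 samples was pooled into 1 library, so that there were 3 libraries with no replicates and mouse-to-mouse spread is unknown. Each value below therefore compares libraries and not conditions. The libraries held 8507580 reads at day 0, 6421056 at day 1 and 9795076 at day 3. Levels are given in CPM (reads per 1000000 miRNA reads of the library) with 95% Wilson intervals, and ratios of levels with exact 95% binomial intervals. Both kinds of interval cover counting error only, not the spread between mice or pools. They take reads as independent, which PCR copies of a molecule are not, so they can be too narrow even for counting error.

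The labelled tissue matched the miRNAs that define it. The level of miR-1a-3p, the main miRNA of mature myofibers, was 233587 CPM at day 0, 73841 CPM at day 1 and 88096 CPM at day 3. The summed level of 4 leukocyte miRNAs (miR-223-3p, miR-142a-3p, miR-142a-5p and miR-150-5p) was 4877 CPM at day 0, 18694 CPM at day 1 and 6461 CPM at day 3. miR-150-5p, of mature lymphocytes, made up most of the day 0 sum and was at 4733, 8307 and 3197 CPM, whereas the other 3 were 19.4- to 32.4-fold above day 0 at day 3. In whole muscle, more cells of a type and more RNA per cell cannot be told apart.

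Primary transcripts of miRNAs are cut in the nucleus by Drosha into hairpins, which Dicer cuts further into a duplex of a 5p and a 3p arm. An Argonaute protein keeps one of the arms, which then pairs with target mRNAs mainly through its seed, bases 2 to 8, while the other arm is usually degraded. Clustered hairpins can be cut from a single transcript, but the mature arms can still differ in processing and stability. Clcn5, the host gene, encodes an endosomal chloride/proton exchanger that is needed for protein uptake in the kidney, and miR-501 has been described in activated muscle progenitor cells.

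In GRCm38, with the GENCODE M21 annotation, the hairpins lie on the minus strand at chrX:7237683-7248497, a stretch of 10815 bases. In the direction of transcription, Mir532 (chrX:7248402-7248497) is followed by Mir188 (chrX:7247989-7248056) after 345 bases, by Mir362 (chrX:7241982-7242046) after another 5942 bases, by Mir501 (chrX:7241243-7241351) after 630 bases and by Mir500 (chrX:7237683-7237774) after 3468 bases. No exon of Clcn5 (chrX:7153810-7319358, minus strand) overlaps any of them. They lie together in the intron at chrX:7213011-7316658, which is intron 2 or 3 of the 3 annotated Clcn5 transcripts that span the cluster. The other 2 Clcn5 transcripts start downstream of it. These 5 hairpins were all of the annotated miRNA hairpins in Clcn5 and within 50 kb of the cluster.

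Mature sequences from RefSeq (GRCm38.p6) matched 7 of the 8 listed members, and those of the remaining listed arms of Mir188 and Mir500 were added because these hairpins are otherwise seen by a single arm. The sequences are shown 5′ to 3′, with the seed in capitals, because the arms fall into groups by seed and position in the hairpin.
miR-532-3p: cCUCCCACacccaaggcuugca
miR-188-5p: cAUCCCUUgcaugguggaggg
miR-188-3p: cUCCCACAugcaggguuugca
miR-362-5p: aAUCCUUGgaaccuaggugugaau
miR-500-5p: aAUCCUUGcuaucugggugcuuagu
miR-501-5p: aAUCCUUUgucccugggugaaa
miR-362-3p: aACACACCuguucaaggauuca
miR-500-3p: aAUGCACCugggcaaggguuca
miR-501-3p: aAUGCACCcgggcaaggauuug

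These 9 arms carry 7 seeds. miR-500-3p and miR-501-3p share the seed AUGCACC, and no other miRNA in the files with a RefSeq sequence carries it. Over 22 bases the pair differ by the substitutions U9C, G18A, C21U and A22G, counted from the 5′ end with the base of miR-500-3p written before the position. The seed of miR-362-5p is shared with miR-500-5p, and that of miR-501-5p differs from it at its last base (G8U, from miR-362-5p to miR-501-5p). miR-362-3p differs from miR-500-3p at 5 of 22 bases, C3U and A4G within the seed and U11G, U12G and A18G outside it. The seed of miR-362-3p is shared with miR-329-3p, which is encoded elsewhere. How the authors assigned reads that could match more than one of these similar arms is not given in the sources used here.

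The level of miR-532-5p at day 1 stood apart from the rest of the cluster. miR-532-5p, which has been studied in tumours as a regulator of Runx3, was counted in 28 reads at day 0, 23696 reads at day 1 and 244 reads at day 3. Its level was 3.29 CPM at day 0 (95% interval 2.28 to 4.76), 3690 CPM at day 1 (3644 to 3738) and 24.9 CPM at day 3 (22.0 to 28.2). It was thus high at day 1 alone, and its intervals on the 3 days did not overlap. On the log2 scale the ratio of levels was 10.13 for day 1 over day 0 (9.60 to 10.72), a 1121-fold difference (776 to 1688). Among the 532 miRNAs with at least 10 reads in 1 of these libraries, this ratio ranked 1 from the highest. Day 3 was 7.57-fold above day 0 (5.11 to 11.6) and 148-fold below day 1. Among the 583 miRNAs compared between days 3 and 1, the ratio ranked 2 from the lowest. By read number, miR-532-5p was in position 327 of the 1138 miRNAs at day 0, 40 at day 1 and 265 at day 3.

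The other arm of the same hairpin did not share this pattern. miR-532-3p was counted in 32, 435 and 823 reads at days 0, 1 and 3. Its level was 3.76 CPM at day 0 (2.66 to 5.31), 67.7 CPM at day 1 (61.7 to 74.4) and 84.0 CPM at day 3 (78.5 to 90.0). The level was thus low at day 0 and highest at day 3. It was 18.0-fold above day 0 at day 1 (12.6 to 26.7) and 22.3-fold at day 3 (15.7 to 32.9), and day 3 was 1.24-fold above day 1 (1.10 to 1.40).

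miR-188-5p, known for a role in the fate of bone marrow stromal cells, was counted in 28 reads at day 0, 204 at day 1 and 844 at day 3. In CPM these were 3.29 (2.28 to 4.76), 31.8 (27.7 to 36.4) and 86.2 (80.5 to 92.2), each day above the one before. The level at day 1 was 9.65-fold that of day 0 (6.48 to 14.9), and that at day 3 was 26.2-fold (18.0 to 39.6). Mir188 lies 345 bases from Mir532, and at day 0 miR-188-5p and miR-532-5p had the same number of reads.

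miR-362-5p, studied in tumours as a regulator of Cyld, had 39, 205 and 1150 reads at days 0, 1 and 3. Its levels were 4.58 CPM (3.35 to 6.27), 31.9 CPM (27.8 to 36.6) and 117.4 CPM (110.8 to 124.4). The increase over day 0 was 6.96-fold at day 1 (4.93 to 10.1) and 25.6-fold at day 3 (18.6 to 36.2). The opposite arm, miR-362-3p, had 11, 59 and 155 reads, or 1.29 CPM (0.722 to 2.32), 9.19 CPM (7.12 to 11.9) and 15.8 CPM (13.5 to 18.5). Both arms were lowest at day 0 and highest at day 3. miR-362-3p was 7.11-fold above day 0 at day 1 (3.70 to 15.0) and 12.2-fold at day 3 (6.65 to 25.0).

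miR-501-3p was the most abundant member at days 0 and 3. It was counted in 654 reads at day 0, 1925 at day 1 and 9706 at day 3, and its level was 76.9 CPM (71.2 to 83.0), 299.8 CPM (286.7 to 313.5) and 990.9 CPM (971.4 to 1010.8). It was 3.90-fold above day 0 at day 1 (3.57 to 4.27) and 12.9-fold at day 3 (11.9 to 14.0). Scaled with median-of-ratios factors, its log2 ratio at day 1 was 0.92, below the fold threshold of 2, against 1.96 with scaling to the total. miR-501-5p was counted in only 5, 7 and 23 reads, or 0.588 CPM (0.251 to 1.38), 1.09 CPM (0.528 to 2.25) and 2.35 CPM (1.56 to 3.52). Its intervals at days 0 and 1 overlapped, and the interval of the ratio of day 1 over day 0 ran from 0.507 to 7.41, so that a difference was not detectable at this depth. At day 3 it was 4.00-fold above day 0 (1.49 to 13.5), but with median-of-ratios factors the log2 ratio was 0.88, below the fold threshold.

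miR-500-3p, which has the seed of miR-501-3p, did not follow it from day 1 to day 3. Its reads numbered 169 at day 0, 1078 at day 1 and 1424 at day 3, with levels of 19.9 CPM (17.1 to 23.1), 167.9 CPM (158.2 to 178.2) and 145.4 CPM (138.0 to 153.1). With scaling to the total, its level at day 3 was 0.866 times that at day 1 (0.800 to 0.938), or -0.21 on the log2 scale. The direction depended on the scaling, since the log2 ratio was 0.10 when each library's deposited expression values were divided by their sum. The deposited values of miR-500-3p itself were close to its reads, 1073 at day 1 and 1405 at day 3. miR-501-3p was 3.31-fold higher at day 3 than at day 1 (3.15 to 3.47).

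**Figure D1:**
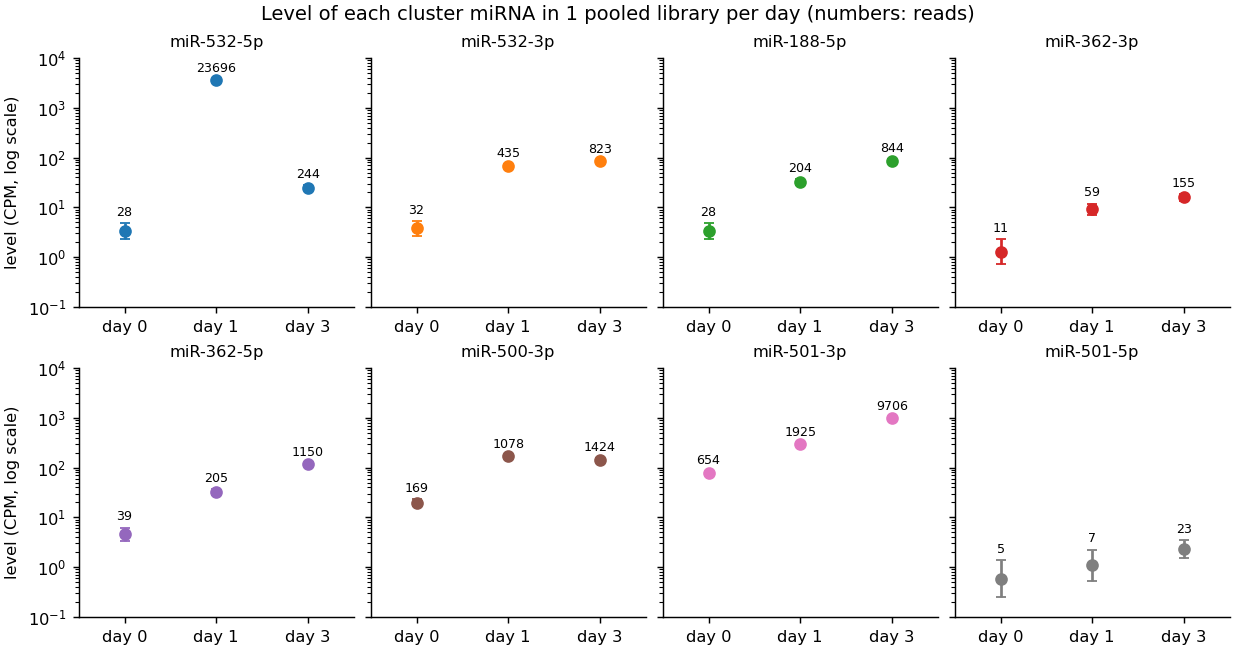
Level of each listed member in CPM on a log axis, in the 1 pooled library of each day, with 95% Wilson intervals as bars and the read number above each point. miR-532-5p reached 3690 CPM at day 1 and was at 24.9 CPM at day 3, whereas miR-501-3p was highest at day 3, at 990.9 CPM.

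The order of the levels within the cluster differed between the days. The RefSeq lengths of the 7 members with a sequence were 21 to 24 bases, so that levels per molecule and per length have nearly the same order, but adapters are ligated to different miRNAs with different efficiency. On day 0, miR-501-3p and miR-500-3p were followed by miR-362-5p, miR-532-3p, miR-532-5p and miR-188-5p, whose intervals overlapped, and then by miR-362-3p and miR-501-5p. The interval of miR-362-3p also overlapped those of miR-532-5p, miR-188-5p and miR-501-5p. On day 1, miR-532-5p was followed by miR-501-3p, miR-500-3p and miR-532-3p. miR-362-5p and miR-188-5p came next with overlapping intervals (31.9 and 31.8 CPM), ahead of miR-362-3p and miR-501-5p. On day 3, miR-501-3p, miR-500-3p and miR-362-5p were followed by miR-188-5p and miR-532-3p with overlapping intervals (86.2 and 84.0 CPM), then by miR-532-5p, miR-362-3p and miR-501-5p.

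A single arm carried most of the day 1 reads of the cluster. The 8 listed members together held 113.5 CPM at day 0 (106.6 to 120.9), 4300 CPM at day 1 (4249 to 4351) and 1467 CPM at day 3 (1443 to 1491). miR-532-5p made up 2.90% of these reads at day 0 (2.01 to 4.16), 85.8% at day 1 (85.4 to 86.2) and 1.70% at day 3 (1.50 to 1.92). Without miR-532-5p, the sum was 110.3 CPM at day 0 (103.4 to 117.5), 609.4 CPM at day 1 (590.6 to 628.8) and 1442 CPM at day 3 (1418 to 1466). The summed level was thus highest at day 1 with miR-532-5p and highest at day 3 without it. Without it, the ratio to day 0 was 5.53-fold at day 1 (5.15 to 5.94) and 13.1-fold at day 3 (12.2 to 14.0).

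Among the other 7 members, miR-501-3p made up 69.7% of the reads at day 0 (66.7 to 72.6), 49.2% at day 1 (47.6 to 50.8) and 68.7% at day 3 (67.9 to 69.5). miR-500-3p made up 18.0% at day 0 (15.7 to 20.6), 27.5% at day 1 (26.2 to 29.0) and 10.1% at day 3 (9.60 to 10.6). The share of miR-532-3p was 3.41% (2.43 to 4.78), 11.1% (10.2 to 12.1) and 5.83% (5.45 to 6.22). The share of miR-501-3p was thus lowest at day 1, and those of miR-500-3p and miR-532-3p were highest. Other members followed another order. The share of miR-362-5p was 4.16% (3.06 to 5.63), 5.24% (4.58 to 5.98) and 8.14% (7.70 to 8.60), with day 3 above the others, and that of miR-188-5p was 2.99% (2.07 to 4.28), 5.21% (4.56 to 5.95) and 5.98% (5.60 to 6.38), with day 0 below the others. The intervals of miR-362-3p overlapped between the days, at 1.17%, 1.51% and 1.10%, and miR-501-5p made up 0.533%, 0.179% and 0.163% with few reads.

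**Figure D2:**
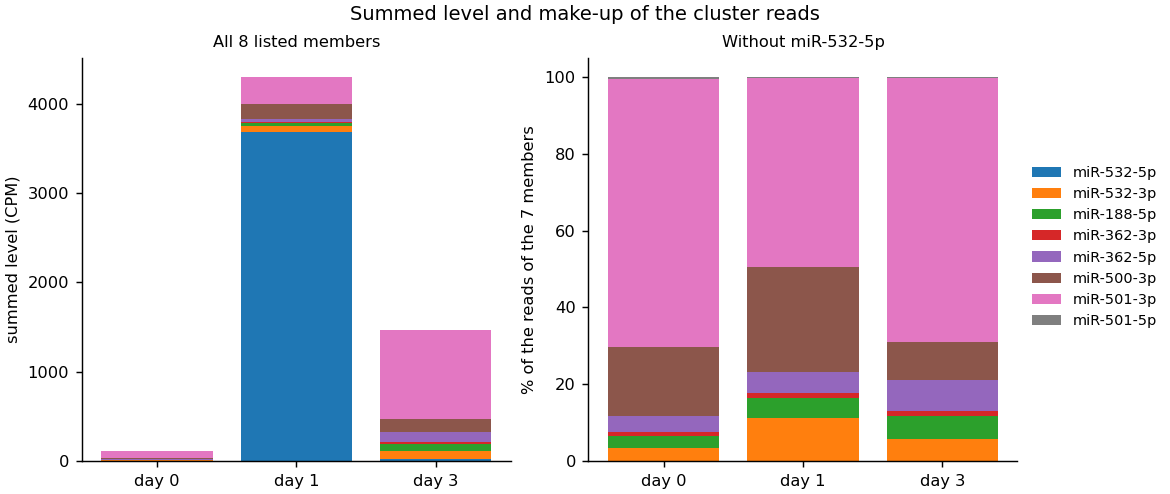
Summed level of the 8 listed members in CPM (left) and the share of each member in the reads of the other 7 after miR-532-5p is left out (right, in percent), in the library of each day. miR-532-5p made up 85.8% of the cluster reads at day 1, and among the other members miR-501-3p held 49.2% at day 1 against 69.7% and 68.7% at days 0 and 3.

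Counts of members past a fold change of 2 were read against all miRNAs with at least 10 reads in 1 of the 2 libraries, with 0 reads set to 3. The study's methods set this fold together with a false discovery rate, which was not applied here because each day has 1 library. On day 1, 7 of the 8 listed members had enough reads, and these 7 were at least 2-fold higher than at day 0, as were 55.3% of the 532 miRNAs compared. None of them was at least 2-fold lower, as 12.0% of all were. On day 3 the 8 listed members were at least 2-fold higher than at day 0, as were 58.5% of the 569 miRNAs compared, and none was lower, against 10.0%. Most miRNAs passed the threshold in this direction in both comparisons, both of which use the day 0 library, and the members were chosen with these ratios known, so nothing is read from the counts.

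The median log2 ratio was 3.08 for day 1 over day 0 in the 7 members with enough reads and 3.65 for day 3 over day 0 in the 8, where the median of all miRNAs compared was 1.28 and 1.47. The 10 most abundant miRNAs held 78.4% of the reads at day 0 against 61.6% and 64.1% at days 1 and 3. Shares of the reads depend on each other, and the part of this difference in the medians was not tested. With edgeR's TMM factors every log2 ratio was lower by 0.94 at day 1 and by 0.93 at day 3, and the share of all miRNAs at least 2-fold higher was 35.2% and 39.4%, with 24.2% and 22.1% lower. The same 7 and 8 members were past the threshold with these factors. With median-of-ratios factors, 6 and 7 members were past it, without miR-501-3p at day 1 and miR-501-5p at day 3, as were 33.1% and 35.1% of all miRNAs.

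From day 1 to day 3 the members went in different directions. At least 2-fold higher at day 3 were 4 of the 8, miR-188-5p (2.71-fold, 2.32 to 3.18), miR-362-5p (3.68-fold, 3.17 to 4.29), miR-501-3p and miR-501-5p (2.15-fold, 0.895 to 5.94), as were 25.0% of the 583 miRNAs compared. The interval of miR-501-5p contained 1, so its place among the 4 is not supported by its read number. miR-532-5p alone was at least 2-fold lower, as were 17.7% of all. miR-532-3p, miR-362-3p (1.72-fold, 1.27 to 2.37) and miR-500-3p lay within 2-fold. With the deposited expression values divided by their sum, miR-362-3p had a log2 ratio of 1.09 and was a member past 2-fold as well, which made 5 of the 8 higher, beside 29.8% of all miRNAs.

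**Figure D3:**
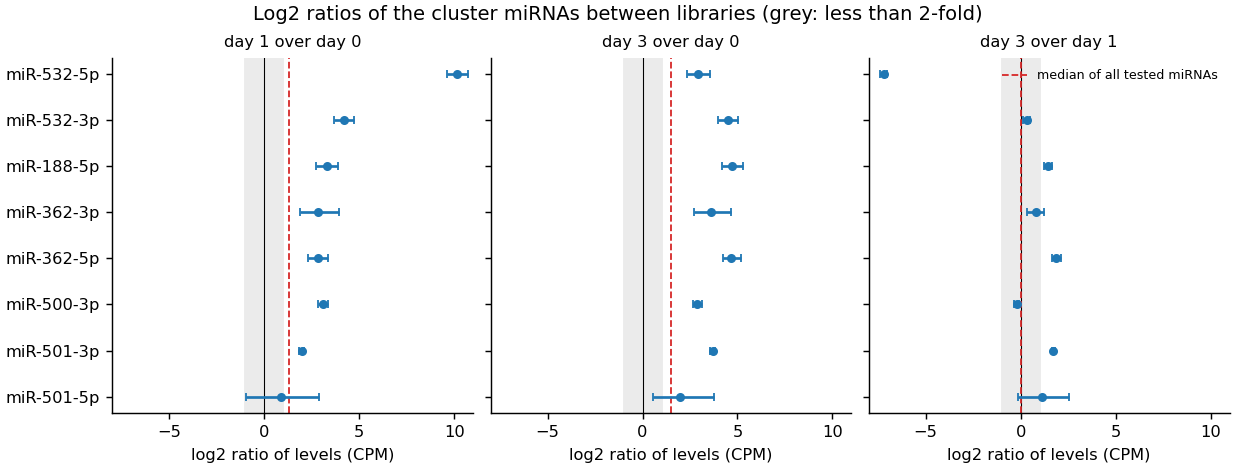
Log2 ratios of the levels of the 8 listed members between pairs of libraries, with exact 95% binomial intervals as bars, the range under 2-fold in grey and the median of all miRNAs compared as a dashed line. miR-532-5p stands at 10.13 for day 1 over day 0 and at -7.21 for day 3 over day 1, outside the range of the other 7 members in both. miR-501-5p is drawn for day 1 over day 0 although it had fewer than 10 reads in both libraries.

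Both arms of each hairpin come from the same precursor, so the share of the 5p arm was compared between days. For miR-532, the 5p arm held 46.7% of all reads from the hairpin at day 0 (34.6 to 59.1), 98.2% at day 1 (98.0 to 98.4) and 22.9% at day 3 (20.4 to 25.5). The 3 intervals did not overlap, and the 5p arm was the larger at day 1 and the smaller at day 3. The 5p share of miR-362 was 78.0% at day 0 (64.8 to 87.2), 77.7% at day 1 (72.3 to 82.3) and 88.1% at day 3 (86.3 to 89.8). That of miR-188 was 96.6% (82.8 to 99.4), 91.5% (87.1 to 94.5) and 97.9% (96.7 to 98.7), where the 3p arm was counted in 1, 19 and 18 reads.

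The remaining hairpins were seen almost only by the 3p arm. The 3p arm made up 99.2% of the reads of miR-501 at day 0, 99.6% at day 1 and 99.8% at day 3. For miR-500, the 5p arm had 0 of 169 reads at day 0, 19 of 1097 at day 1 and 54 of 1478 at day 3, which gave a 3p share of 98.3% at day 1 (97.3 to 98.9) and 96.3% at day 3 (95.3 to 97.2). With the 0 reads of day 0 set to 3, miR-500-5p was 8.39-fold higher at day 1 and 15.6-fold higher at day 3 than at day 0. The lower 95% limits of these ratios from the 0 reads themselves were 6.18 and 12.3. miR-188-3p, with 1 read at day 0, was 25.2-fold higher at day 1 (4.00 to 1046) and 15.6-fold higher at day 3 (2.47 to 651).

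**Figure D4:**
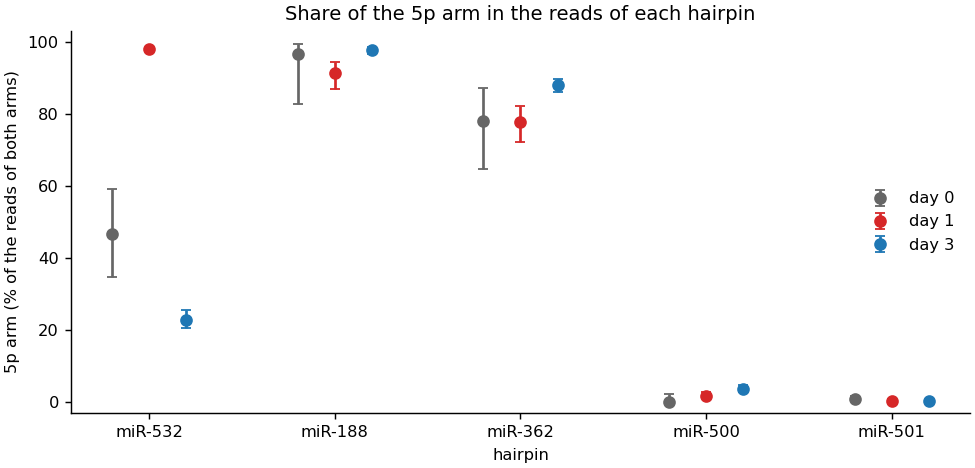
Share of the 5p arm in the reads of both arms, in percent, for each of the 5 hairpins in the library of each day, with 95% Wilson intervals as bars. miR-532 went from 46.7% at day 0 to 98.2% at day 1 and 22.9% at day 3, while the hairpins miR-500 and miR-501 stayed under 5% on each day.

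The difference between the arms of miR-532 was set beside that of all hairpins with 2 listed arms and at least 10 reads of each arm in 1 of the 2 libraries. For day 1 over day 0, the log2 ratio of miR-532-5p exceeded that of miR-532-3p by 5.96, and this difference ranked 1 of 152 hairpins by size, where the median was 0.80. For miR-129b, the log2 ratio of the 3p arm was 4.49 above that of the 5p arm. This value depends on the floor, since the arms had 2 and 0 reads at day 0 and 0 reads were set to 3. For miR-21a, the log2 ratio of the 3p arm was 4.37 above, with both arms counted on both days. Which of these 2 hairpins came next after miR-532 is therefore not settled. For day 3 over day 1 the difference of miR-532 was -7.52, again in position 1 of 168. For day 3 over day 0, which leaves out day 1, the arms of miR-532 differed by -1.56 and were in position 52 of 164, where the median was 1.02. For day 1 over day 0, the arms of miR-362 differed by 0.03 and those of miR-188 by 1.38, in positions 145 and 46 of 152, the latter with 1 read of the 3p arm at day 0. The difference of miR-500 depends on the floor, because its 5p arm had 0 reads at day 0. miR-501 was not compared, because its 5p arm had fewer than 10 reads at days 0 and 1.

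**Figure D5:**
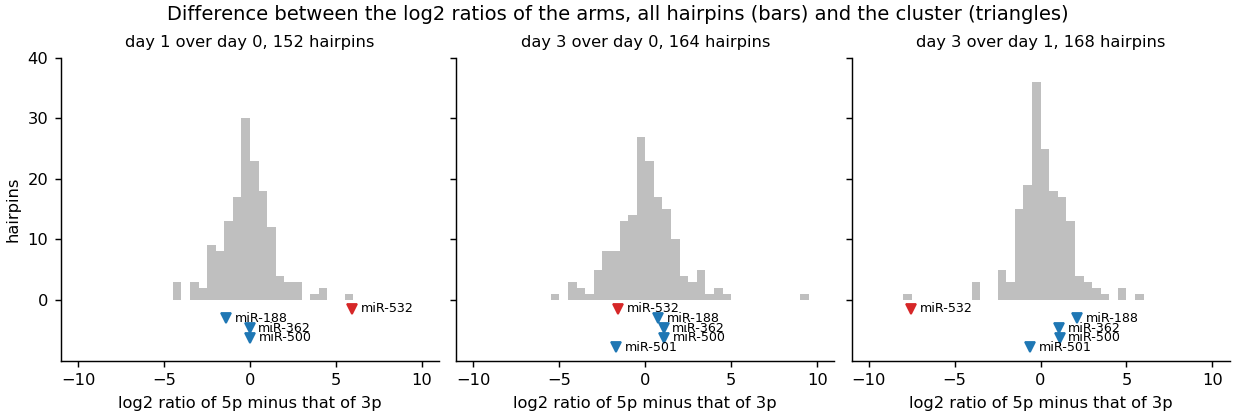
Histogram of the difference between the log2 ratio of the 5p arm and that of the 3p arm over all hairpins with enough reads, for each pair of libraries, with the hairpins of the cluster as triangles under it (0 reads set to 3, so that the triangle of miR-500 depends on this floor in the ratios to day 0). miR-532 is at 5.96 for day 1 over day 0 and at -7.52 for day 3 over day 1, and at -1.56 for day 3 over day 0.

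The deposited expression values, whole numbers that never exceed the read count, were close to the read counts for all members but miR-532-5p at day 1 and miR-501-3p at day 3. For miR-532-5p they were 28 at day 0, 20653 at day 1 and 241 at day 3, and for miR-532-3p they were 32, 435 and 820. On day 1 the value of miR-532-5p was 87.2% of its read count. The 16 other miRNAs with a read number within 1.5 times that of miR-532-5p at day 1 had a median of 87.6% (82.8 to 90.7, lowest to highest). In these values, the 5p arm made up 97.9% of miR-532 at day 1 and 22.7% at day 3. How the authors made the values is not stated, and the part of amplification in the day 1 level was not tested.

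The miRNAs with the pattern nearest to that of miR-532-5p were named by the Euclidean distance between the pairs of log2 ratios of days 1 and 3 over day 0, among 334 miRNAs outside the cluster with at least 1 read in each library and 100 reads in 1. They were miR-129b-3p (distance 2.49), miR-6538 (3.46), miR-21a-3p (3.99), miR-223-3p (4.04) and miR-142a-3p (4.58). miR-129b-3p was counted in 2, 314 and 12 reads at days 0, 1 and 3, and miR-6538 in 52, 9724 and 70. miR-223-3p, an miRNA of neutrophils and macrophages, was at 97.8, 7815 and 1896 CPM. These 3 and miR-532-5p were highest at day 1, and at day 3 their log2 ratios over day 0 were 2.38 for miR-129b-3p, 0.23 for miR-6538, 4.28 for miR-223-3p and 2.92 for miR-532-5p.

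The median pattern of the other 7 members, with log2 ratios over day 0 of 2.83 at day 1 and 3.69 at day 3, had closer neighbours. These were miR-421-3p (distance 0.018), miR-184-3p (0.21), miR-20a-5p (0.29), miR-99b-3p (0.30) and miR-17-5p (0.37). miR-20a-5p and miR-17-5p belong to the miR-17 to miR-92a cluster, known for its role in cell proliferation. miR-421-3p, the nearest, was counted in 53 reads at day 0, 282 at day 1 and 779 at day 3. These distances rest on 3 libraries and describe them only.

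For another intron cluster, in Mcm7, a gene of the replicative helicase, 5 of the 6 listed arms were highest at day 1. miR-93-5p was at 464.5 CPM at day 0, 2849 CPM at day 1 and 2183 CPM at day 3. miR-25-3p was at 69.9 CPM, 552.9 CPM and 301.9 CPM on the same days, and miR-106b-5p at 11.2 CPM, 88.0 CPM and 60.8 CPM. The 3 other arms, miR-106b-3p, miR-93-3p and miR-25-5p, had at most 55 reads in any library, and miR-25-5p was highest at day 3 (5.62 CPM). On the log2 scale, the ratios of day 3 over day 1 ran from -1.76 to 1.85 over these 6 arms and from -7.21 to 1.88 over the 8 listed members of the Clcn5 cluster. With 1 library a day, the difference between the clusters was not tested.

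The seed of miR-362-3p was also present in miR-329-3p, whose level was lower at days 1 and 3 than at day 0. miR-329-3p was counted in 569 reads at day 0, 135 at day 1 and 321 at day 3, or 66.9, 21.0 and 32.8 CPM. It was thus more abundant than miR-362-3p in each library, although miR-362-3p was higher after injury. For the seed shared by miR-500-3p and miR-501-3p, both carriers lie in the cluster and were higher at days 1 and 3 than at day 0.

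The miRNAs of other cell types were higher or lower than at day 0, depending on the list and the day. Of the 4 leukocyte miRNAs, 3 were at least 2-fold higher than at day 0 on both days, and none of the 4 was at 0 reads in any library. Of 5 epithelial miRNAs of the miR-200 and miR-205 families, 5 were at least 2-fold higher at day 1 and 4 at day 3, with a summed level of 7.64, 182.7 and 89.4 CPM at days 0, 1 and 3. Most of this sum was miR-200c-3p (4.47, 158.1 and 72.1 CPM), and the others had at most 64 reads in any library. Among all miRNAs compared, 55.3% at day 1 and 58.5% at day 3 were at least 2-fold higher than at day 0. At least 2-fold lower were 12.0% and 10.0%. The 2 erythroid miRNAs, miR-451a and miR-144-3p, summed to 7142, 25326 and 12560 CPM. Of the 4 myofiber miRNAs, miR-1a-3p and miR-133a-3p were at least 2-fold lower than day 0 at days 1 and 3 and miR-499-5p at day 3, while miR-208b-3p had only 4, 1 and 10 reads. Of the 2 miRNAs of regenerating muscle, both were at least 2-fold lower than day 0 at day 1, and 1 was at least 2-fold higher at day 3. miR-206-3p was at 12384, 4781 and 180001 CPM, and miR-133b-3p at 1240.3, 246.8 and 1644 CPM, 1.33-fold above day 0 at day 3. The leukocyte, erythroid and epithelial sums were highest at day 1, as was miR-532-5p, and the sum of the other 7 members was highest at day 3, as were miR-206-3p and miR-133b-3p. The part of these cell types in the levels of the cluster was not tested.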

How the data were processed

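RNA of 4 samples per day was pooled and sequenced on the BGISEQ platform. Clean reads were aligned to GRCm38.p6, and the submitters' processing notes name HISAT and Bowtie2. The authors deposited a raw read count per mature miRNA, not normalized, and an expression value, treated as a score because it is a whole number at or below the read count; how it was made is not given in the sources used here. The counting method is likewise not given.

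Counts were divided by the library total to give CPM. With 1 library per day, no replicate model or test was run. The ratio and interval functions were tested on simulated data with counting error only. The miRNAs changed there had more reads at day 0 than most members and a smaller fold than miR-532-5p at day 1. Low read numbers and folds of that size were therefore not covered. The members and lists were chosen with earlier results of these data known. The miRNAs named were the members, other arms in Clcn5, the Mcm7 cluster, cell type markers, carriers of a member's seed, and the 5 nearest patterns each to miR-532-5p and to the median of the other members. Seeds were compared for the 953 of 1138 miRNAs with a RefSeq sequence. Alternatives were scaling by TMM (edgeR) or by median of ratios (DESeq2), totals without the 10 most abundant miRNAs, the deposited scores scaled to their total, a pseudocount of 1 CPM, a fold of 4 and other read minimums. Scripts ran in Python 3.11.15 (scipy 1.17.1) and in R 4.3.3 with DESeq2 1.42.0 and edgeR 4.0.16.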

Additional observations from a re-analysis of the deposited data

How the results depend on the processing

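Every value rests on 1 pooled library per day, so pools, mice and days cannot be told apart, and members with under 10 reads in both libraries of a pair were left out of the counts past 2-fold. No paired analysis was possible because each day has 1 library. The 20 ratios of members past 2-fold kept their direction in all 100 recomputations and stayed past 2-fold in 97. They were picked for their size, so a kept direction says little. Of the ratios under 2-fold, the log2 ratio of miR-501-5p for day 1 over day 0 was 0.89, but -0.05 by TMM and -0.15 by median-of-ratios factors. That of miR-500-3p for day 3 over day 1 was -0.21, but 0.10 with the deposited scores. For the summed level of the members, the log2 ratio of day 1 over day 0 was 5.24, and 4.30 when scaled by TMM, 4.20 by median-of-ratios factors, 4.63 by totals that omit the 10 most abundant miRNAs, 4.45 with the deposited scores scaled to their total and 2.47 without miR-532-5p. For day 3 over day 0 it was 3.69, and 2.77, 2.57, 3.18 and 3.33 under the first 4 of these. For day 3 over day 1 it was -1.55, and -1.63 with median-of-ratios factors, -1.44 with the reduced totals, -1.13 with the scores and 1.24, in the opposite direction, without miR-532-5p, the member that the sum turns on. With a fold of 4, 0 members were higher on day 3 than on day 1, against 4 with a fold of 2. The share of all miRNAs past a fold of 4 was not determined, so nothing is read from this count. Scaling by TMM, by median of ratios or by the reduced totals moves all miRNAs alike, whereas the deposited scores do not. The cause of the other shifts was not tested.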
